A study of Rattus norvegicus with 40 samples.

Results

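The 10 genes described here belong to the hypoxia pathway and to glycolysis, and they were read in microglia of adult rats whose mothers had been exposed to intermittent hypoxia or normoxia during pregnancy. They were taken by Ensembl identifier from a table of 32883 gene IDs, and all 10 were in the table and passed the filter on low counts in every test. The list holds 2 subunits of the hypoxia-inducible factors, Hif1a (ENSRNOG00000008292) and Epas1 (ENSRNOG00000021318), and 2 textbook targets of them outside the glycolytic chain, Vegfa (ENSRNOG00000019598) and Slc2a1 (ENSRNOG00000007284). The other 6 encode glycolytic enzymes, namely Hk2 (ENSRNOG00000006116), Tpi1 (ENSRNOG00000015290), Pgk1 (ENSRNOG00000058249), Eno1 (ENSRNOG00000017895), Pkm (ENSRNOG00000011329) and Ldha (ENSRNOG00000013009). The question put to them was whether any trace of the gestational exposure was left in their transcripts at 8 weeks of age.

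All animals were Sprague Dawley rats, and the dams were treated from gestational day 10 to day 21 in daily sessions of 8 hours with 15 cycles per hour. Hypoxia dams received air that alternated between 10.5% and 21% oxygen, and normoxia dams received 21% oxygen in both phases of the cycle. Offspring of both exposures were born and raised under normal housing. From the C3 to C6 cervical spinal cord and from the medulla, CD11b-positive cells were collected on magnetic beads, and each RNA sequencing library came from 1 region of 1 animal. The 8 groups were female hypoxia cord, female normoxia cord, male hypoxia cord, male normoxia cord, female hypoxia medulla, female normoxia medulla, male hypoxia medulla and male normoxia medulla, with 5 libraries each. The series design describes 1 female and 1 male from each of 5 litters per exposure, and the labels do not say which animals shared a dam.

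Total counts ran from 8145033 to 24039411 in 39 libraries, and female hypoxia medulla replicate 3 stood apart at 6061346. That library held counts for 13379 genes, against 15925 in the next shallowest, male hypoxia cord replicate 2. Whether it differed by more than depth was not tested. Female hypoxia cord libraries were deeper than female normoxia cord libraries, at 17772758 ± 2821289 against 10537640 ± 1921869 counts (SD, n = 5 each). In the male medulla the normoxia libraries were the deeper ones, at 20290188 ± 2495016 against 12315404 ± 1256380 counts in hypoxia (SD, n = 5 each). The files pair no IDs with gene names, so the markers of microglia and of other cell types were not analysed here, nor were other genes of the pathway. In such bulk samples fewer cells of a type and less RNA per cell cannot be told apart. Levels are given as counts per 1000000 counts of the library (CPM), and they are not corrected for gene length, so they compare libraries and not genes.

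Cells sense oxygen largely through the protein stability of the hypoxia-inducible factors. With oxygen present, prolyl hydroxylases mark the alpha subunits, encoded by Hif1a and Epas1, for degradation; with little oxygen the subunits persist, pair with a constant partner and bind DNA at a short core motif near their targets. The targets include Vegfa, the growth factor of blood vessels, Slc2a1, which encodes the glucose transporter GLUT1, and many enzymes that turn glucose into lactate. Microglia draw on glycolysis when they become reactive, and Hk2 is known as the hexokinase that microglia use most.

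The core of the binding motif is ACGTG or GCGTG, and it was searched on both strands in the 250 bases before the start of each gene in the RefSeq promoter table of the GRCr8 build. Windows were found for 9 of the 10 genes, and 4 of the 9 held at least 1 match, namely Hif1a, Slc2a1, Eno1 and Ldha. Over all genes, 36.7% of 33469 windows held at least 1 match. No match was found in the windows of Epas1, Vegfa, Hk2, Pkm and Tpi1. The stretches below are shown because they hold the matches, and they are those of all 4 genes with one. Hk2, whose exposure effect differed between the regions of females, had none. All are on the plus strand, 5′ to 3′, with the matches on either strand in capitals, so that CACGT and CACGC are the cores read from the other strand; CACGTG holds a match on each strand and was counted as 2.
Hif1a, chr6:98359659-98359748: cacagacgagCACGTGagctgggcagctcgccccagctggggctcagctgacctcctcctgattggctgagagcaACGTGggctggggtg
Slc2a1, chr5:138002359-138002520: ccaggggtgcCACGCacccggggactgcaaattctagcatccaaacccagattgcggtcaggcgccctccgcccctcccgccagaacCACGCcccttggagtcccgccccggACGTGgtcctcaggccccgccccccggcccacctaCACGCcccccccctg
Eno1, first start, chr5:166002844-166002866: ccgtcaattcCACGCgggagtga
Eno1, second start, chr5:166003233-166003257: ccgccttggtCACGCtcttctcgtg
Ldha, chr1:106507995-106508091: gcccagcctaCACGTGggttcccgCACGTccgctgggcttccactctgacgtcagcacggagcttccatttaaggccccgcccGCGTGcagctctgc

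The match nearest to the start lay 164 bases before it in Hif1a, 16 in Slc2a1 and 14 in Ldha. In Eno1 it lay 13 bases before the first annotated start and 118 before the second. Slc2a1 and Ldha held 4 matches each, Hif1a held 3 and each Eno1 window held 1. By comparison 16.02% of all windows held 2 or more. A match describes the letters of the window and does not show that a factor binds there.

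Across the 8 groups most of the genes kept a narrow range of mean levels. The ratio of the highest to the lowest group mean was 1.27 for Pgk1, 1.31 for Ldha, 1.38 for Hif1a and 1.39 for Eno1. It was 1.59 for Slc2a1, 1.61 for Pkm, 1.64 for Hk2 and 1.67 for Tpi1, while it reached 3.22 for Vegfa and 6.23 for Epas1. When the groups of each gene were put in order of their means, 70 pairs of neighbours resulted, and in 2 of them the gap was larger than the larger SD of the pair. Both gaps set the female hypoxia cord, at the low end, apart from the next group, for Hif1a (104 ± 10.6 CPM in the female hypoxia cord and 121 ± 6.59 CPM in the male normoxia cord) and for Pkm (362 ± 26.0 CPM in the female hypoxia cord and 458 ± 57.5 CPM in the male normoxia medulla).

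**Figure D1:**
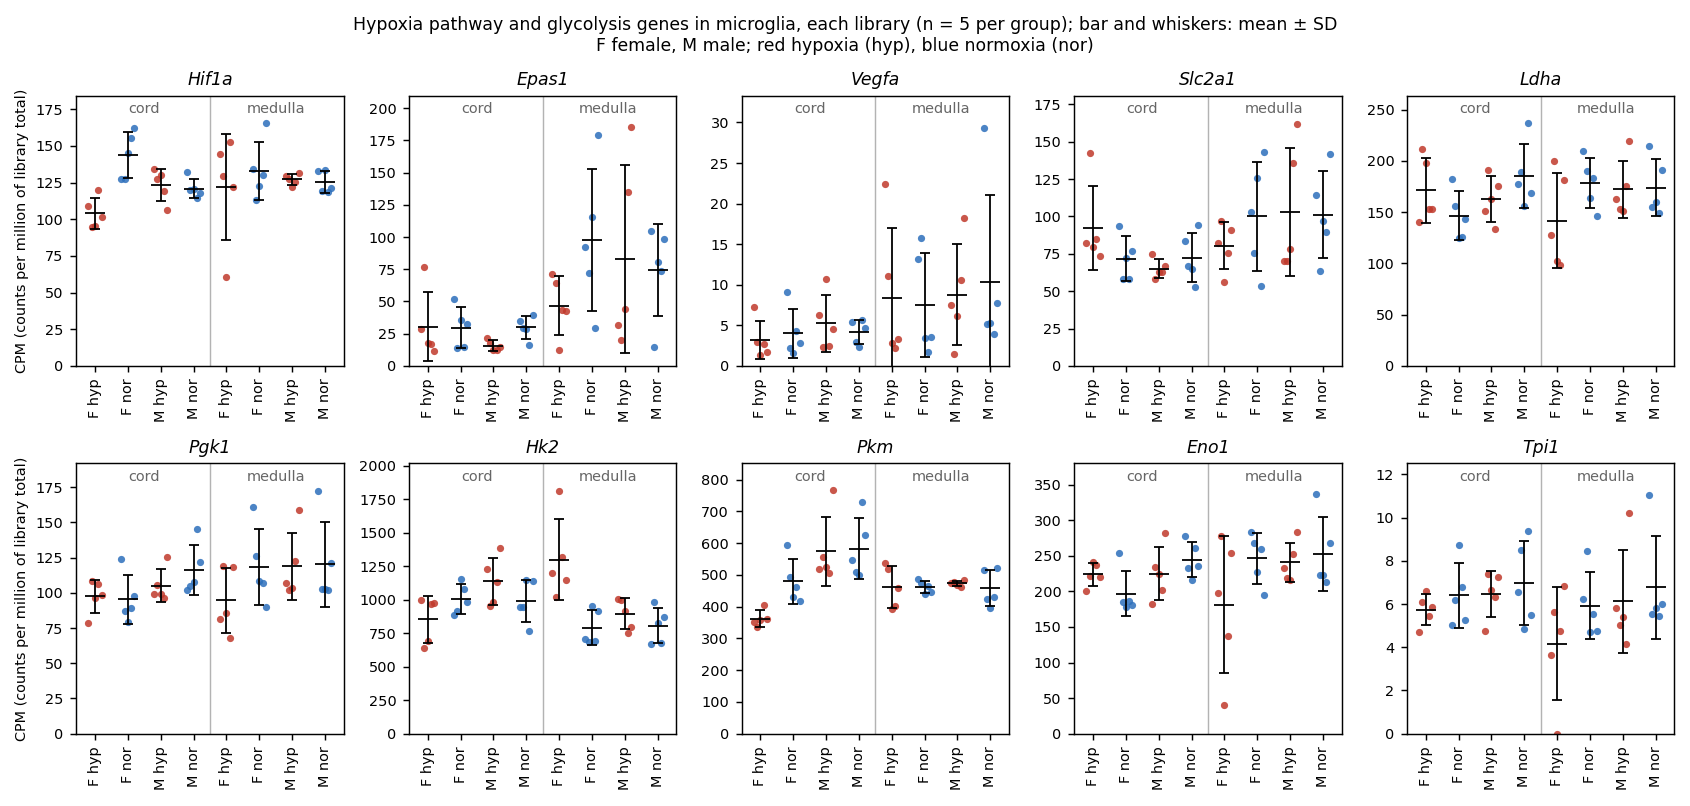
Each panel plots one gene: CPM on a linear axis from 0 for each library (points) with the mean and SD (bar and whiskers, cut at 0, n = 5 per group), groups by sex and exposure with cord left and medulla right of the grey line, hypoxia in red and normoxia in blue. Hif1a and Pkm are lowest in the female hypoxia cord, Hk2 is highest in the female hypoxia medulla (1299 CPM on average), and the points of Epas1 and Vegfa scatter widely within groups.

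In the female cord, Hif1a was called lower after gestational hypoxia, and Slc2a1 and Eno1 were called higher. Leaving out 1 library lost the Slc2a1 call in 5 of 10 fits and the Eno1 call in 7 of 10. No call of these genes held with the spread estimated over all 40 libraries. Hif1a, the alpha subunit of HIF-1, stood at 109, 94.5, 95.5, 120.1 and 102 CPM in female hypoxia cord libraries, against 128, 128, 145, 155 and 162 CPM in female normoxia cord libraries. All 5 hypoxia values lay below all 5 normoxia values, although 1 hypoxia library overlapped the normoxia range once TMM factors, which correct library totals for composition, were applied. The fitted log2 fold change was -0.31 ± 0.09 (SE; edgeR quasi-likelihood test, adjusted p = 0.00996), and leaving out any 1 library kept it between -0.36 and -0.27 with an adjusted p of at most 0.0302. With the spread estimated over all 40 libraries, the log2 fold change was -0.31 with an edgeR adjusted p of 0.0547.

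Epas1 encodes the alpha subunit of HIF-2, and it was read at 28.7, 76.8, 18.1, 16.8 and 11.7 CPM in female hypoxia cord libraries, against 52.0, 13.8, 35.4, 14.6 and 32.6 CPM in female normoxia cord libraries. The ranges overlapped, 1 hypoxia library lay above all others, and the difference did not pass the test (log2 fold change 0.24 ± 0.44, edgeR adjusted p = 0.712). Its sign rested on that library: without hypoxia replicate 2 the log2 fold change was -0.54 (edgeR adjusted p = 0.249), and the positive sign was kept in 16 of 18 alternatives. Vegfa was low in every cord group and did not pass the test either, at 1.40 to 7.22 CPM in female hypoxia cord libraries and 1.59 to 9.11 CPM in female normoxia cord libraries (log2 fold change -0.20 ± 0.51, edgeR adjusted p = 0.794, and 0.36 without normoxia replicate 1).

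Slc2a1 stood at 82.5, 142, 79.8, 84.6 and 73.6 CPM in female hypoxia cord libraries, against 93.7, 57.9, 72.3, 57.9 and 77.1 CPM in female normoxia cord libraries. The groups overlapped, and hypoxia replicate 2 lay far above the rest, in the same library that held the high Epas1 value. The fitted log2 fold change was 0.54 ± 0.19 (edgeR adjusted p = 0.0365). Without hypoxia replicate 2 it was 0.28 with an edgeR adjusted p of 0.183. The call was lost with only the 10 female cord libraries in the fit (0.53, edgeR adjusted p = 0.0701). It was also lost without normoxia replicate 2, 3, 4 or 5, at log2 fold changes of 0.47, 0.53, 0.47 and 0.56 and edgeR adjusted p of 0.0897, 0.0645, 0.0899 and 0.0512.

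Eno1, whose product enolase forms phosphoenolpyruvate, stood at 200.4, 222, 241, 237 and 219.5 CPM in female hypoxia cord libraries, against 254, 186, 178, 186 and 181 CPM in female normoxia cord libraries. In CPM every hypoxia library lay above 4 of the 5 normoxia libraries, and normoxia replicate 1 was the highest of the 10. The fitted log2 fold change was 0.34 ± 0.12 (edgeR adjusted p = 0.0303). It lost its call when any of normoxia replicates 2, 3, 4 and 5 or hypoxia replicates 2, 3 and 4 was left out, with log2 fold changes of 0.30 to 0.33 and edgeR adjusted p of 0.0595 to 0.0863.

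The remaining enzymes of the chain did not pass the test in the female cord. Ldha, lactate dehydrogenase A, read 140.2, 212, 198, 153 and 153 CPM in female hypoxia cord libraries, against 182, 156, 125, 126 and 143 CPM in female normoxia cord libraries, with 2 hypoxia libraries above every normoxia one (log2 fold change 0.39 ± 0.15, edgeR adjusted p = 0.0567). Pkm, pyruvate kinase, read 353, 336, 357, 406 and 359.7 CPM in female hypoxia cord libraries, against 595, 493, 429.9, 463 and 419 CPM in female normoxia cord libraries. All 5 hypoxia values of Pkm lay below the normoxia values on this scale, but they overlapped on the TMM scale (log2 fold change -0.26 ± 0.13, edgeR adjusted p = 0.126). Pgk1, Hk2 and Tpi1 had log2 fold changes of 0.19, -0.09 and 0.01 with edgeR adjusted p of 0.298, 0.626 and 0.982.

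Counted as a list, 3 of 10 genes were called in the female cord, 2 higher and 1 lower, with a median log2 fold change of 0.10, where the median of all genes was -0.01. Over all 13593 genes tested, 32.8% were called, so the share among the 10 was near the background. In CPM, Hif1a and Pkm were the 2 genes without overlap between the groups, where 20.9% of 14832 genes showed none.

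The direction of the calls depended on the scaling in this comparison. TMM factors were 0.857 to 0.983 in female hypoxia cord libraries and 1.027 to 1.065 in female normoxia cord libraries, without overlap. Scaled by library totals alone, the median of all genes moved to -0.16 and the split of calls from 2468 higher and 1990 lower genes to 1665 higher and 3212 lower. Under that scaling 0 of the 10 genes were called higher and 2 lower, namely Hif1a and Pkm (log2 fold change -0.41, edgeR adjusted p = 0.0183). Slc2a1 and Eno1 then had log2 fold changes of 0.37 and 0.19 with edgeR adjusted p of 0.114 and 0.223, and Tpi1 changed sign. The part of depth and composition in these differences was not tested.

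In the male cord none of the 10 genes was called, where 0% of 13593 genes were called with edgeR and 6.19% had an unadjusted p under 0.05. DESeq2 and limma also called 0 of the 10. Hif1a read 134, 127, 130.1, 119 and 107 CPM in male hypoxia cord libraries, against 132, 119.7, 121, 115 and 118 CPM in male normoxia cord libraries, and the groups overlapped (log2 fold change 0.02 ± 0.09). Epas1 was the 1 gene with an unadjusted p under 0.05, at 12.1 to 21.9 CPM in male hypoxia cord libraries and 16.3 to 39.8 CPM in male normoxia cord libraries (log2 fold change -0.94 ± 0.45, edgeR adjusted p = 0.764, 0.0467 before adjustment). Slc2a1, Eno1 and Ldha had log2 fold changes of -0.17, -0.13 and -0.20.

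The difference between the female and the male response in the cord was tested as an interaction. Eno1 was the 1 gene of 10 called, where 23.2% of 13593 genes were called: its exposure effect was higher in females by 0.47 ± 0.17 on the log2 scale (edgeR adjusted p = 0.0423). The Eno1 call held in 5 of 20 fits that left out a library, those without female hypoxia replicate 1, female normoxia replicate 1, male hypoxia replicate 2 or 5 and male normoxia replicate 3; in the other 15 the adjusted p was 0.0549 to 0.0948 at differences of 0.40 to 0.49. With RLE factors Eno1 lost its call (0.46, edgeR adjusted p = 0.0529) and Hif1a gained one (-0.35, edgeR adjusted p = 0.0465). Ldha, Hif1a and Slc2a1 had differences of 0.59 ± 0.22, -0.33 ± 0.13 and 0.70 ± 0.27 with edgeR adjusted p of 0.053, 0.0595 and 0.0649. With library totals alone the median of all genes in this interaction was -0.18, and Hif1a was the 1 gene called (-0.49, edgeR adjusted p = 0.00982).

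**Figure D2:**
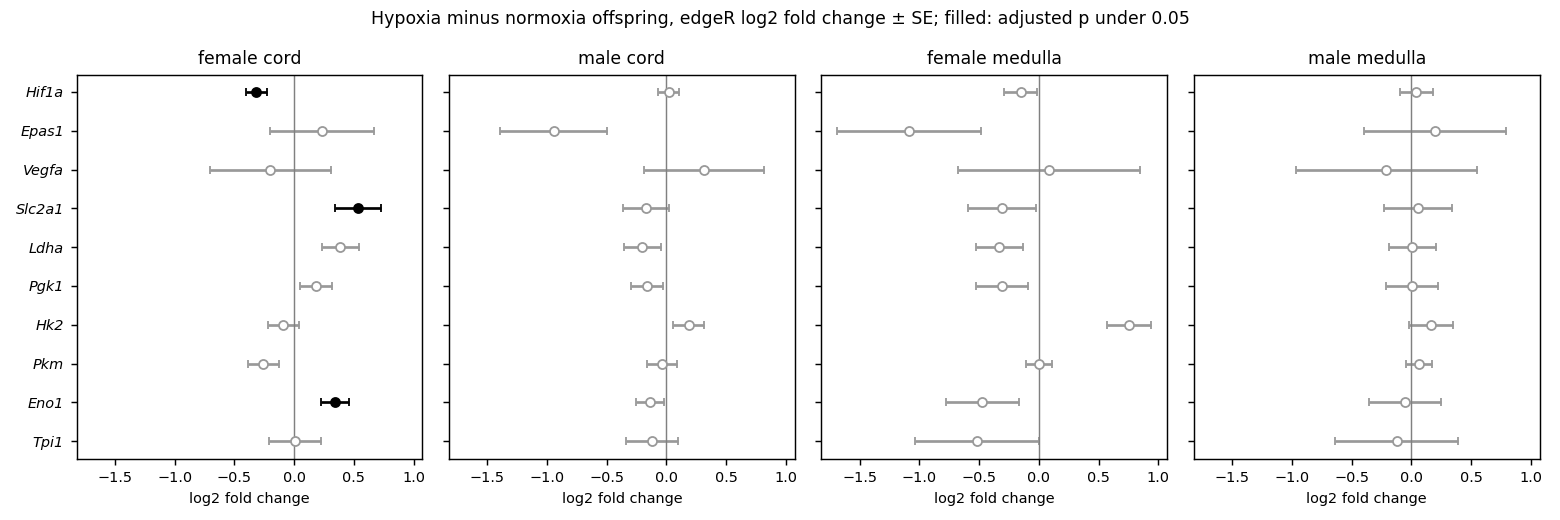
Panels plot edgeR log2 fold changes of hypoxia over normoxia (points) with SE (whiskers) for the 10 genes in each sex and region, on a log2 axis; filled points have an adjusted p under 0.05. Filled points appear in the female cord panel, at -0.31 for Hif1a, 0.54 for Slc2a1 and 0.34 for Eno1, and Hk2 in the female medulla (0.76) and Epas1 (-1.09 in the female medulla, -0.94 in the male cord) lie farthest from 0 among the open ones.

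In the medulla, Hk2 showed the clearest separation between exposures in females. Hk2, the hexokinase that commits glucose to the cell, read 1200.2, 1019.7, 1809, 1320.4 and 1145 CPM in female hypoxia medulla libraries, against 709, 685, 954, 691 and 918 CPM in female normoxia medulla libraries. All 5 hypoxia libraries lay above all 5 normoxia libraries, where 1.33% of 14832 genes showed no overlap in either direction. The highest value belonged to replicate 3, the shallowest library. The fitted log2 fold change was 0.76 ± 0.19, and it missed the threshold after adjustment over all genes (edgeR adjusted p = 0.246, 0.000661 before adjustment). Without replicate 3 the log2 fold change was 0.53 ± 0.13 (edgeR adjusted p = 0.459, 0.000993 before adjustment).

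In the female medulla 0 of the 10 genes and 0% of 14151 genes were called with edgeR, while 15.4% of all genes and 1 of the 10 had an unadjusted p under 0.05. Hk2 was called by DESeq2 (log2 fold change 0.80, adjusted p = 0.0269) and by edgeR with the spread estimated over all 40 libraries (0.75, adjusted p = 0.0263), and limma called 0 of the 10. Hif1a read 145, 129.6, 60.5, 153 and 122 CPM in female hypoxia medulla libraries, against 134, 113, 123, 130.4 and 165 CPM in female normoxia medulla libraries. The low value was again that of replicate 3, and without it the log2 fold change of Hif1a was -0.001, against -0.15 with it. Eno1 in the same library was 39.9 CPM, where the other 4 libraries of the group held 137 to 278 CPM, and Tpi1 had 0 counts there, which allows up to 0.495 CPM. Epas1, Eno1 and Ldha had log2 fold changes of -1.09, -0.47 and -0.33 with edgeR adjusted p of 0.382, 0.448 and 0.413, and without replicate 3 that of Eno1 was -0.22.

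In the male medulla 0 of the 10 genes were called by edgeR, DESeq2 or limma, 0 had an unadjusted p under 0.05, and the log2 fold changes ran from -0.21 for Vegfa to 0.20 for Epas1. Neither sign held throughout, with 0.71 for Vegfa without male normoxia medulla replicate 1 and -0.53 for Epas1 with limma. Over all 14151 genes 0% were called with edgeR, and 0.862% had an unadjusted p under 0.05. Hk2 read 1008, 995, 915, 753 and 799 CPM in male hypoxia medulla libraries, against 673, 980.1, 827, 677 and 871 CPM in male normoxia medulla libraries, and the groups overlapped (log2 fold change 0.17 ± 0.19). The interaction of sex and exposure in the medulla called 0 of 10 genes and 0% of 14151 genes with edgeR, and 0 of the 10 with DESeq2 or limma. Hk2 was the 1 gene with an unadjusted p under 0.05, its exposure effect being higher in females by 0.59 ± 0.26 on the log2 scale (edgeR adjusted p = 0.785, 0.0363 before adjustment). Without the shallowest library it was 0.37 ± 0.19 (edgeR adjusted p = 0.941, 0.0592 before adjustment).

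Whether the response differed between the regions was tested over all 40 libraries. The main fits of the region comparisons used group means and did not pair cord and medulla by animal. In females 2 of 10 genes were called, where 20.8% of 14832 genes were. The exposure effect of Ldha was higher in the cord than in the medulla by 0.73 ± 0.25 on the log2 scale (edgeR adjusted p = 0.0385), and that of Hk2 was lower in the cord by 0.83 on that scale (log2 difference -0.83 ± 0.23, edgeR adjusted p = 0.0105). Ldha read 127, 199.6, 102, 98.6 and 181 CPM in female hypoxia medulla libraries, against 210.2, 190.2, 164, 183 and 147 CPM in female normoxia medulla libraries. Hypoxia thus lay mostly low for Ldha in the medulla and mostly high in the cord, with overlap in both regions.

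Hk2 kept its call in each of the 20 fits that left out 1 female library, and was -0.62 ± 0.19 without the shallowest (edgeR adjusted p = 0.0172). With limma it lost the call, at -0.51 (adjusted p = 0.0668), and Ldha did too. Ldha lost its call in 11 of those fits, at 0.58 to 0.72 and edgeR adjusted p of 0.0563 to 0.102. These left out female hypoxia medulla replicates 1, 3 and 4, female normoxia medulla replicates 1, 2 and 4, female hypoxia cord replicates 2 and 3, and female normoxia cord replicates 3, 4 and 5. Cord and medulla of an animal are pairs by design, and with each animal as a block 4 of the 10 genes were called: Slc2a1 (0.76, edgeR adjusted p = 0.0496) and Eno1 (1.01, edgeR adjusted p = 0.0365) joined Ldha (0.76) and Hk2 (-0.79). The 20.8% of all genes belongs to the fit without the block, and the share called with it is not given here. With library totals alone the median of all genes was -0.16 and Hk2 was the 1 gene called (-0.95, edgeR adjusted p = 0.00362). In males 0 of the 10 genes and 0% of all genes were called with edgeR, 0 of the 10 had an unadjusted p under 0.05, and neither DESeq2 nor limma called any of them.

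Between the regions themselves, Epas1 stood lower in the cord than in the medulla, and the difference passed the unpaired test in 1 of 4 comparisons. In hypoxia males Epas1 read 21.9, 17.8, 12.1, 12.2 and 14.5 CPM in the cord, against 32.0, 19.9, 43.9, 135 and 185 CPM in the medulla. The ranges overlapped by the lowest medulla library, and the medulla libraries spread about their mean of 83.1 CPM with an SD of 72.8. The log2 fold change of cord over medulla was -2.42 ± 0.58 (edgeR adjusted p = 0.00822), and without male hypoxia medulla replicate 5 it was -1.87 with an edgeR adjusted p of 0.0637. Of 8 other settings on all libraries or sets of them, with each animal as a block among them, 7 kept the call. Limma did not, at -1.44 with an adjusted p of 0.124. In normoxia females it was -1.75 ± 0.56 (edgeR adjusted p = 0.0554), and with each animal as a block -1.73 (edgeR adjusted p = 0.0343). In normoxia males it was -1.30 ± 0.55 and in hypoxia females -0.42 ± 0.55 (edgeR adjusted p = 0.158 and 0.609). The value in hypoxia females was -1.19 without female hypoxia cord replicate 2 (edgeR adjusted p = 0.12) and -1.45 with limma (adjusted p = 0.0976).

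In hypoxia females Hk2 was the 1 gene called between regions, where 26.2% of 14832 genes were called. Its 996, 638, 691, 967 and 977 CPM in the female hypoxia cord all lay below the female hypoxia medulla values, where 8.03% of 14832 genes showed no overlap in CPM. With TMM factors the ranges of Hk2 overlapped, but those factors were set within each region and not between regions. The log2 fold change of Hk2 was -0.53 ± 0.16 (edgeR adjusted p = 0.0156). The call rested on single libraries: it was lost without female hypoxia medulla replicate 3 (-0.29, edgeR adjusted p = 0.117) and without female hypoxia cord replicate 2 or 3 (-0.46 each, edgeR adjusted p = 0.055 and 0.0545). With each animal as a block Ldha was called as well (0.43, edgeR adjusted p = 0.0475), and with library totals alone, where the median of all genes was -0.16, Pkm was (-0.35, edgeR adjusted p = 0.0271). In normoxia females 0 of 10 genes were called by edgeR, 2 had a p under 0.05 before adjustment, DESeq2 and limma called 1 each, where edgeR called 5.87% of all genes.

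In hypoxia males Epas1 was the 1 of 10 called, where 7.76% of 14832 genes were. Pkm in that comparison read 517, 556, 524, 505 and 766 CPM in the male hypoxia cord, against 476, 476, 468, 461 and 483 CPM in the male hypoxia medulla, without overlap on this scale, which 7.54% of 14832 genes also showed (log2 fold change 0.29 ± 0.12, edgeR adjusted p = 0.132). In normoxia males 0 of 10 genes were called by edgeR, where 6.55% of all genes were. Before adjustment 2 had a p under 0.05, and DESeq2 called 1 and limma 2. Pkm was nearest to the threshold there (0.37 ± 0.12, edgeR adjusted p = 0.0506), and with each animal as a block it passed (0.37, edgeR adjusted p = 0.0453).

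**Figure D3:**
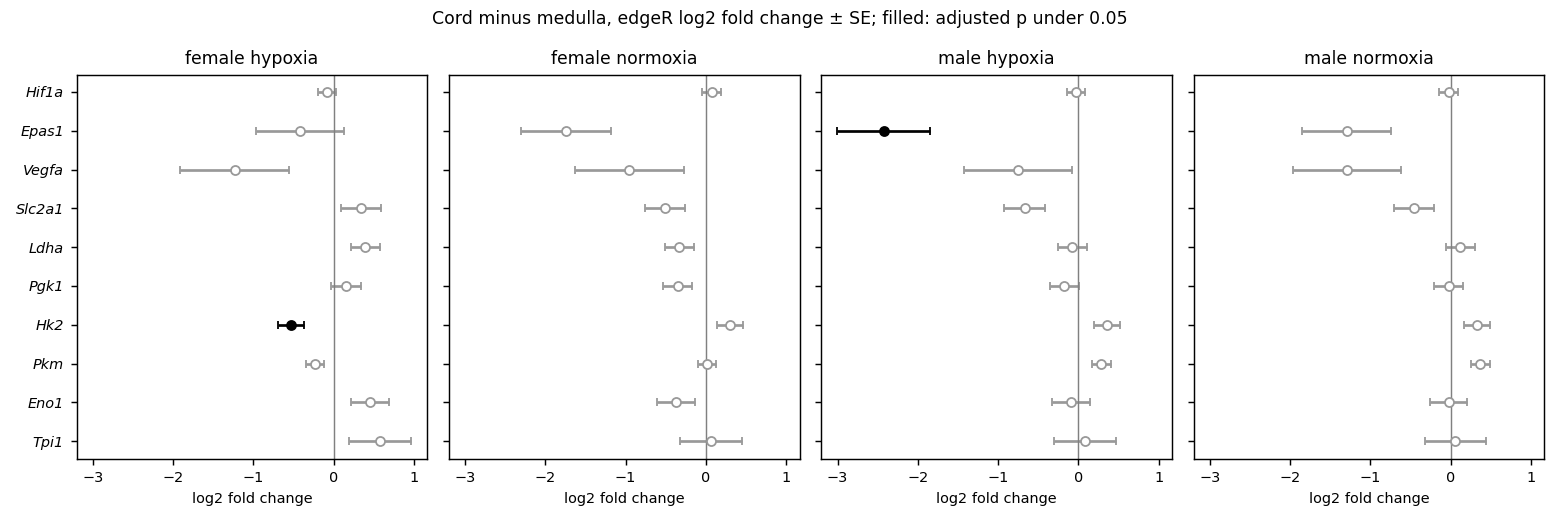
Panels plot edgeR log2 fold changes of cord over medulla (points) with SE (whiskers) for the 10 genes within each sex and exposure; filled points have an adjusted p under 0.05. Epas1 lies left of 0 in the 4 panels, from -0.42 to -2.42, and Vegfa too, from -0.75 to -1.29, while Hk2 lies left of 0 in hypoxia females (-0.53) and right of it in the other 3 groups.

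Between the sexes in the hypoxia cord, Pkm was lower and Slc2a1 higher in females. For Pkm the 5 female values, 336 to 406 CPM, all lay below the 5 male values, 505 to 766 CPM, where 10.5% of 14832 genes showed no overlap. The log2 fold change of female over male was -0.55 ± 0.13 (edgeR adjusted p = 0.00611), and the adjusted p was at most 0.0163 in each of the 10 fits that left out a library. In the normoxia cord the log2 fold change of Pkm was -0.33 ± 0.13 (edgeR adjusted p = 0.112), and the sex by exposure interaction of Pkm did not pass (-0.22 ± 0.18, edgeR adjusted p = 0.393). Slc2a1 was higher in females, at 73.6 to 142 CPM in female hypoxia cord libraries and 57.9 to 75.1 CPM in male hypoxia cord libraries (log2 fold change 0.64 ± 0.19, edgeR adjusted p = 0.0249). Slc2a1 lost its call without female hypoxia cord replicate 2 (0.38, edgeR adjusted p = 0.105) and without male hypoxia cord replicate 3 or 4 (0.60 each, edgeR adjusted p = 0.0586 and 0.0588), and with limma (0.42, adjusted p = 0.0658). These 2 were the genes called of the 10, where 19.6% of 13593 genes were called. With library totals alone the median of all genes was -0.10, and Hk2 was called lower in females in addition (-0.41, edgeR adjusted p = 0.0471).

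In the normoxia cord 0 of the 10 genes were called between females and males by edgeR, where 6.56% of 13593 genes were. Log2 fold changes of female over male were negative for 9 of the 10, and 5 had an unadjusted p under 0.05. Eno1 was the lowest in adjusted p (-0.36, edgeR adjusted p = 0.0632), and DESeq2 and limma called it. Without female normoxia cord replicate 1, where Eno1 was high, 4 of the 10 were called lower in females: Ldha, Pgk1, Pkm and Eno1, at -0.50, -0.47, -0.44 and -0.49 (edgeR adjusted p = 0.0484, 0.0289, 0.0408 and 0.0142). The 6.56% belongs to the fit with that library, and the share of all genes called without it is not given here. Both the exposure comparison and the sex comparison of the female groups use the same female libraries, so their values are not independent.

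In the hypoxia medulla 0 of 10 genes were called between the sexes by edgeR, DESeq2 or limma, where edgeR called 0.0777% of 14151 genes. The 5 female hypoxia medulla libraries of Hk2, 1019.7 to 1809 CPM, lay above the 5 male ones, 753 to 1008 CPM, where 1.37% of 14832 genes showed no overlap (log2 fold change 0.59 ± 0.19, edgeR adjusted p = 0.294, 0.00518 before adjustment). Without female hypoxia medulla replicate 3 it was 0.36 ± 0.13 (edgeR adjusted p = 0.626). In the normoxia medulla 0 of 10 were called by the same 3 tools and 0 had an unadjusted p under 0.05, where edgeR called 0.0707% of all genes.

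Within groups the genes varied in sets. Deviations of log2 TMM-scaled CPM from the group means were correlated across the 20 cord libraries and across 19 medulla libraries, the shallowest left out, with permutation within groups and adjustment over 100 relations. Among 45 pairs of genes, 7 passed in the cord, 6 positive and 1 negative, and 11 passed in the medulla, all positive. All genes of a library share its scaling factor, and libraries may differ in composition. The part of either in these relations was not tested.

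Epas1 and Slc2a1 moved together in both regions. Which cells of the samples carried the 2 transcripts was not tested, as no cell type markers could be read. Pearson's r was 0.905 in the cord (Spearman's rho = 0.854, n = 20, permutation p = 4.0e-05, adjusted p = 8.0e-04) and 0.908 in the medulla (rho = 0.926, n = 19, permutation p = 2.0e-05, adjusted p = 5.0e-04). Without the 2 libraries farthest from the median of Epas1, r was 0.832 in the cord and 0.921 in the medulla. The relation shows in single libraries: Slc2a1 read 70.5, 70.0, 78.0, 136 and 162 CPM in the 5 male hypoxia medulla libraries, in which Epas1 read 32.0, 19.9, 43.9, 135 and 185 CPM. Neither gene correlated with Hif1a beyond the threshold in either region.

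**Figure D4:**
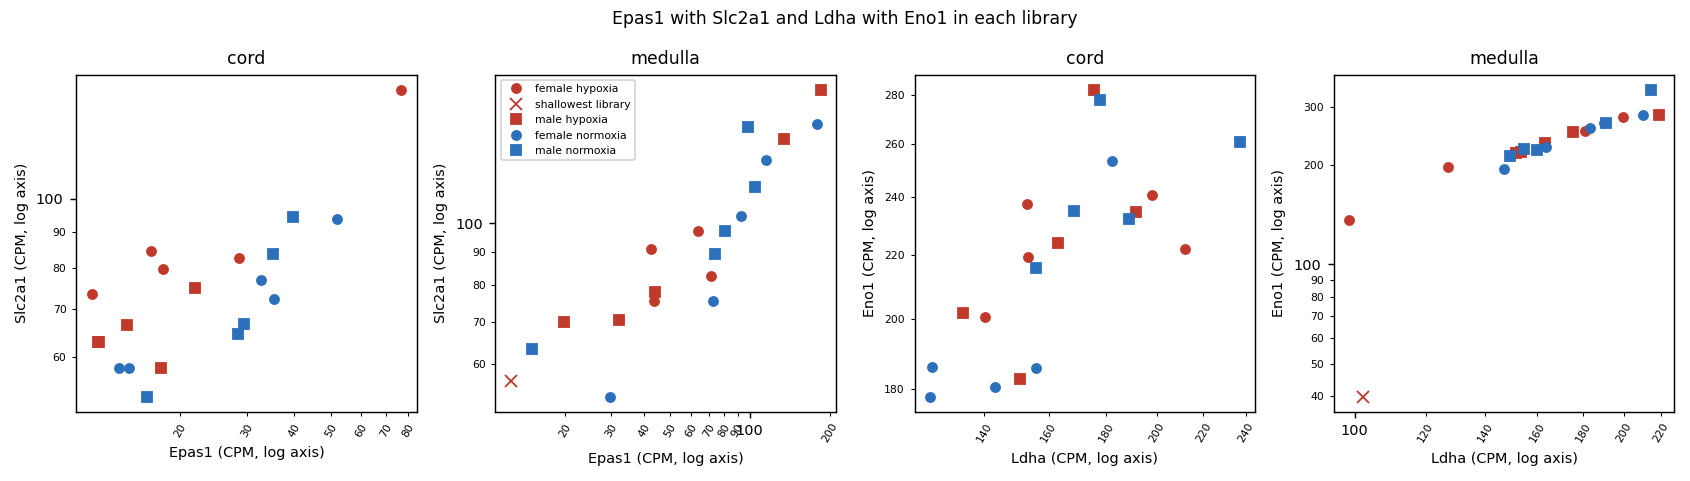
Each point is a library, with CPM of Slc2a1 against Epas1 (2 panels on the left) and of Eno1 against Ldha (2 panels on the right) on log axes, in cord and medulla, hypoxia in red and normoxia in blue, females as circles and males as squares. Points run mostly from lower left to upper right, most tightly for Ldha and Eno1 in the medulla, where the shallowest library (cross) lies apart at 39.9 CPM of Eno1.

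The lower part of glycolysis formed the other set. Ldha and Eno1 correlated at r = 0.981 in the medulla (rho = 0.958, n = 19, permutation p = 1e-05, the smallest that 100000 permutations can give, adjusted p = 3.3e-04; r = 0.971 without the 2 farthest libraries) and at 0.674 in the cord (rho = 0.74, n = 20, permutation p = 0.00126, adjusted p = 0.00994; 0.706 without 2). Ldha and Pgk1, phosphoglycerate kinase, stood at 0.952 in the medulla and 0.738 in the cord, and Pgk1 and Eno1 at 0.944 and 0.705. Pkm joined them, at 0.845 with Eno1 in the medulla and 0.747 in the cord, where r was 0.522 without the 2 farthest libraries. Pkm and Ldha passed in the medulla (0.791) and not in the cord (r = 0.532, rho = 0.561, n = 20, permutation p = 0.0129, adjusted p = 0.0679). Outside glycolysis, Pkm also passed with Vegfa in the medulla (r = 0.604, rho = 0.653, n = 19, permutation p = 0.00577, adjusted p = 0.0321; 0.507 without 2). Tpi1, triose phosphate isomerase, correlated with Pgk1 (0.789), Ldha (0.729) and Eno1 (0.701) in the medulla and with none of them beyond the threshold in the cord.

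Hk2, which acts at the entry of glycolysis, stood outside that set. In the cord it ran against Ldha (r = -0.816, rho = -0.753, n = 20, permutation p = 3.3e-04, adjusted p = 0.0035; -0.742 without the 2 farthest libraries), and in the medulla it passed with no other gene. When the same gene was compared between medulla and cord of an animal, r was positive for all 10 genes, from 0.021 for Tpi1 to 0.402 for Slc2a1 (n = 19 animals), but 0 of the 10 passed (lowest permutation p = 0.0531, adjusted p = 0.192).

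**Figure D5:**
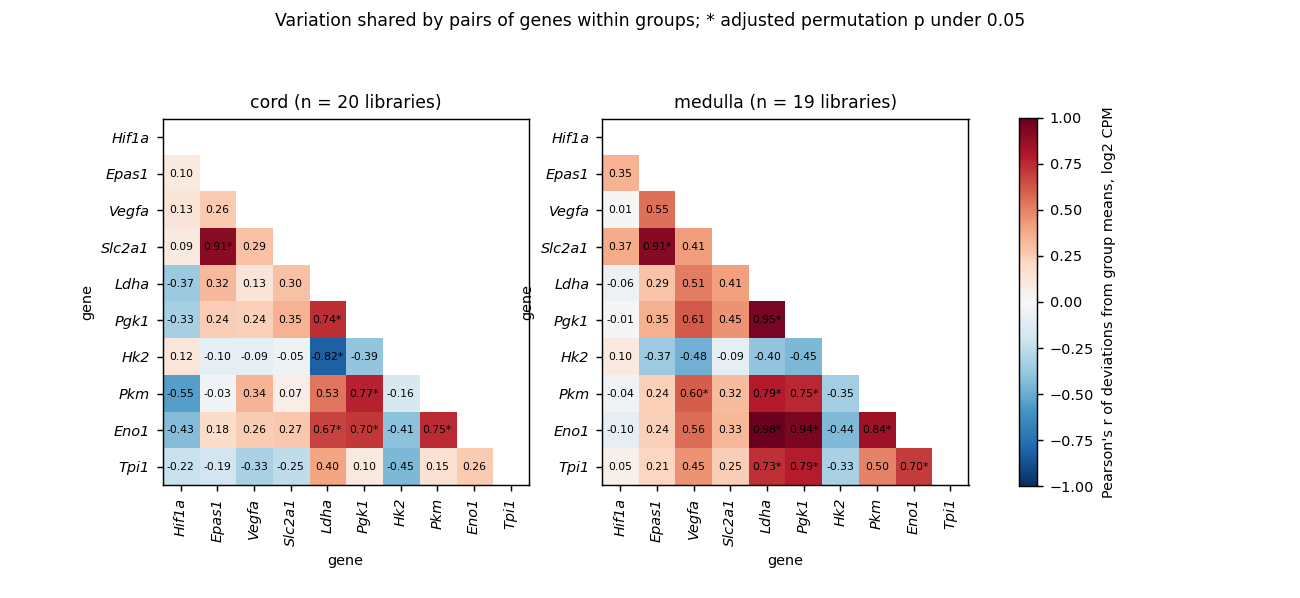
Colour gives Pearson's r between the deviations of 2 genes from their group means, from -1 (blue) to 1 (red), in the cord (n = 20 libraries) and the medulla (n = 19 libraries); stars mark an adjusted permutation p under 0.05. The block of Ldha, Pgk1, Pkm and Eno1 is red in both regions, Epas1 with Slc2a1 reaches 0.905 in the cord and 0.908 in the medulla, and Hk2 with Ldha is blue in the cord at -0.816.

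Among 14822 other genes, 2 IDs were most like the mean pattern of the 6 glycolytic enzymes over the 40 libraries, ENSRNOG00000007330 (r = 0.909) and ENSRNOG00000018630 (r = 0.908). Without the shallowest library r was 0.823 and 0.813. The 6 enzymes themselves followed that mean unequally, from r = 0.933 for Eno1 to 0.495 for Pkm and -0.528 for Hk2. Each enzyme is part of that mean, so its r is partly fixed in advance, and the shallowest library is included. The files give no name for either ID.

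Several of the enzymes have processed copies in the genome. RefSeq's GRCr8 gene table names 31 pseudogenes after Eno1, 30 after Ldha, 19 after Pkm, 8 after Pgk1 and 3 after Tpi1, and none after Hif1a, Epas1, Vegfa, Slc2a1 or Hk2. The levels of those 5 enzymes are uncertain to the extent that the authors' counting split or shared reads with such copies.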

How the data were processed

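The authors deposited whole-number read counts, not normalized, for 32883 Ensembl rat gene IDs in 40 columns, 1 per library, and every column was matched to a sample by its label. TopHat2 2.1, HTSeq, edgeR and the genome build rn6 are named, with no role or order, per the submitters' processing notes; their annotation, strand setting and read filters: not given in the sources used here. The names of the 10 genes come with the list of IDs and not from the files, and 0 of the 32883 IDs could be matched to the reference gene table. The genes and the comparisons were chosen with earlier results of these data known.

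Differences were tested with edgeR 4.0.16 in R 4.3.3 (quasi-likelihood F test, TMM factors, filterByExpr with a minimum count of 10), and a Benjamini-Hochberg adjusted p under 0.05 over all genes tested was called. Exposure, sex and their interaction were fitted over the 20 libraries of a region (13593 genes in the cord, 14151 in the medulla), and region and its interaction with exposure over all 40 (14832 genes). The 16 comparisons were repeated with RLE factors, no filter, DESeq2 1.42.0, limma 3.58.1 (voom, sample quality weights), other sets of libraries, a replicate block, each library left out, and, added after seeing the data, library totals alone. The fits were also run on simulated cord counts, with equal numbers of genes raised and lowered. The simulation did not include the difference in TMM factors between the female cord groups, so it does not bear on the scaling. Standard errors follow from the F statistic. All 10 genes of the list were named, and the 2 like-patterned IDs by their rank in correlation.

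Total counts of 6061346 to 24039411 per library set the counting precision, and a count of 0 was bounded at 3 counts, which covers counting error only. Each row named a gene, and 9630 of the IDs had no count in any library. By design, cord and medulla libraries with a shared number are from 1 animal, and their deviations from group means correlated above 0 in 20 of 20 animals (0.067 to 0.424, median 0.189).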

Additional observations from a re-analysis of the deposited data

Results flagged for a closer look

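In 9 of 80 combinations of gene and group, 1 library lay far from the other 4, by a gap that chance gives in about 1 of 20 such groups. None of the 9 was in the shallowest library. In the female hypoxia cord, replicate 2 held Epas1 at 76.8 CPM, where the other 4 libraries held 11.7 to 28.7 CPM, and Slc2a1 at 142 CPM, where the others held 73.6 to 84.6 CPM. Replicate 1 of that group held Vegfa at 7.22 CPM (others 1.40 to 2.91 CPM). In the female normoxia cord, replicate 1 held Eno1 at 254 CPM (others 178 to 186 CPM). In the male hypoxia cord, replicate 5 held Pkm at 766 CPM (others 505 to 556 CPM). In the male hypoxia medulla, replicate 5 held Tpi1 at 10.2 CPM (others 4.16 to 5.83 CPM).

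Male normoxia medulla replicate 1 was high for 3 genes. Vegfa was 29.3 CPM there (others 3.89 to 7.76 CPM), Pgk1 was 172 CPM (others 102 to 121 CPM) and Tpi1 was 11.0 CPM (others 5.47 to 6.01 CPM).

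Interaction tests passed for 3 effects. For the sex interaction in the cord 1 of 10 genes was called, where 23.2% of 13593 genes were. For the region interaction in females 2 of 10 were called, where 20.8% of 14832 genes were. The exposure effect of Eno1 in the cord was higher in females than in males by 0.47 on the log2 scale. In females, the exposure effect of Ldha was higher in the cord than in the medulla by 0.73, and that of Hk2 differed by -0.83. Eno1 lost its call in 15 of the 20 fits that left out a library, and Ldha in 11 of 20. Hk2 kept its call in those fits and lost it with limma (adjusted p = 0.0668).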

How the results depend on the processing

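The sign of no called gene reversed under any setting tried. Counts of called genes among the 10 changed by over 1.5 times, or to or from 0, as follows. With all 40 libraries sharing the spread, the count was 0 in place of 3 for exposure in the female cord, 1 in place of 0 in the female medulla, 0 in place of 1 for the sex interaction in the cord, and between the sexes 1 in place of 2 in the hypoxia cord and 1 in place of 0 in the hypoxia medulla. DESeq2 gave 1 in place of 0 for exposure in the female medulla, 3 in place of 1 for the sex interaction in the cord, and 1 in place of 0 for the regions in normoxia females and in normoxia males and for the sexes in the normoxia cord. Limma gave 0 in place of 2 for the region interaction in females, 0 in place of 1 for the regions in hypoxia females and hypoxia males, 1 in place of 0 in normoxia females, 2 in place of 0 in normoxia males, and for the sexes 1 in place of 2 in the hypoxia cord and 1 in place of 0 in the normoxia cord. For the region interaction in females the count was 1 in place of 2 with library totals alone, without a filter, with the 20 female libraries only and without the shallowest library. For the regions in hypoxia females it was 2 in place of 1 with library totals alone and 0 with only the 10 libraries compared or without the shallowest. In normoxia females it was 1 in place of 0 with only the 10 libraries or without the shallowest, and in normoxia males 1 in place of 0 with RLE factors or without the shallowest.

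With each animal as a block the count was 4 in place of 2 for the region interaction in females, 2 in place of 1 for the regions in hypoxia females, and 1 in place of 0 in normoxia females and in normoxia males; in the other region comparisons the count did not move. Libraries with the same number in different groups of a region correlated at -0.452 to 0.716 (60 pairs, median 0.031). Pairs within and across exposures were pooled there, so these values cannot decide whether a number marks a litter. With the number as a block Eno1 lost its call in the sex interaction of the cord (0.48, edgeR adjusted p = 0.0582), so the count was 0 in place of 1. By less, the count was 2 in place of 3 for exposure in the female cord with library totals alone or only the 10 libraries compared, and 3 in place of 2 for the sexes in the hypoxia cord with library totals alone. The share of all genes called in each of these fits is not given beside the counts, so they are not set against a background. The cause of these changes was not tested.

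With each library left out in turn, the count was 1 to 4 for exposure in the female cord, 0 to 4 for the sex interaction in the cord, 1 to 3 for the region interaction in females, 0 to 3 for the regions in hypoxia females and 0 to 1 in the other 3 groups. It was 1 to 3 for the sexes in the hypoxia cord, 0 to 4 in the normoxia cord and 0 to 0 in both medulla comparisons. It was 0 to 0 for exposure in the male cord and both medullas, for the sex interaction in the medulla and for the region interaction in males.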
